A study of Homo sapiens with 6 samples.

Results

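The genes described here are the ligands, receptors, latent binding proteins and reported targets of the transforming growth factor beta (TGF-beta) pathway. They were the rows of the deposited table whose symbol equals TGFB1, TGFB2, TGFBR1, TGFBR2, LTBP1, LTBP2, LTBP3, TGFBI, THBS1 or PMEPA1, that is, 10 genes of 20289. All were measured in SW480, an established cell line from a human colon adenocarcinoma, by mRNA sequencing of 6 libraries. The overexpressing cells, MUCP1-FLAG (n = 3), are labelled as overexpressing the microprotein MUCP1 with a Flag tag. The control cells, LV-NC (n = 3), have wild type as their labelled genotype and no treatment other than LV-NC. Both groups grew in serum-supplemented L-15 medium with antibiotics. The sources used here do not give what drives MUCP1-FLAG expression or whether a culture was a clone. The comparison asks which genes differ when MUCP1 is raised.

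TGF-beta is secreted in an inactive form, held by a latency peptide that in turn is bound in the matrix by latent TGF-beta binding proteins. Integrins, proteases and thrombospondin can free the ligand, which joins a type II and a type I receptor kinase. The type I receptor then phosphorylates SMAD2 and SMAD3, which enter the nucleus with SMAD4. In normal colon epithelium the pathway restrains growth, and colorectal tumours often carry mutations in its receptors or in SMAD4. SW480 is known as a line without functional SMAD4.

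Total counts were 17333329, 23282604 and 19514699 in the MUCP1-FLAG libraries and 19130086, 21534908 and 18867369 in the LV-NC libraries. No row of the table carries the symbol MUCP1 (0 of 20289), so the overexpression was not checked here. Mitochondrially encoded transcripts took 5.91% to 6.24% of counts in MUCP1-FLAG and 6.11% to 6.61% in LV-NC. The labelled cell type was checked with 10 colon epithelial markers, of which KRT8, KRT18, KRT19 and EPCAM were abundant and CDX1, KRT20 and CEACAM5 were at or near 0. Their summed level was 6875 to 7054 CPM (counts scaled to library size) in MUCP1-FLAG and 6393 to 7070 CPM in LV-NC. Of the 7 that were tested, 1 was higher and 3 were lower in MUCP1-FLAG (57.1% called, beside 16.1% of all genes tested). Their part in the results was not tested. KRT19 was the higher marker (571 CPM in MUCP1-FLAG, 506 CPM in LV-NC). Not called were KRT8 (3687 and 3615 CPM), KRT18 (2487 and 2281 CPM) and CDX2 (14.4 and 14.7 CPM). The lower markers were EPCAM (202 CPM in MUCP1-FLAG, 254 CPM in LV-NC), the E-cadherin gene CDH1 (14.9 and 31.2 CPM) and VIL1 (13.3 and 17.5 CPM). The 9 fibroblast markers summed to 0.754 to 1.09 CPM in MUCP1-FLAG and 1.10 to 1.36 CPM in LV-NC, with COL1A2, COL3A1, DCN and FAP at 0 in all 6 libraries. Markers of blood cells (7 genes) stayed at or below 1.39 CPM in sum and those of endothelium (5 genes) at or below 4.17 CPM. In RNA from whole cultures, fewer cells of a kind and less RNA per cell cannot be told apart.

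Of the 10 genes, 5 passed the test, edgeR's quasi-likelihood test on the deposited counts with Benjamini-Hochberg adjustment over all 12920 genes tested and a threshold of 0.05. LTBP2 and TGFBI were higher in MUCP1-FLAG cells, and PMEPA1, THBS1 and LTBP3 were lower. The called changes were small: THBS1 fell by 23.8%, the largest fall, and the largest rise was that of LTBP2, 0.26 in log2 fold change (MUCP1-FLAG over LV-NC). Both ligands, both receptors and LTBP1 were not called. All 10 genes passed the filter on low counts, and 5 of 10 called compares with 16.1% of all genes tested, of which 8.35% were higher and 7.71% lower. For the same 5 genes the values of the groups did not overlap in CPM, which held for 33.1% of all genes tested. The 10 genes and the further lists were chosen with earlier results of these data known. Their shares therefore cannot show an excess over all genes. The median log2 fold change over the 10 genes was −0.085, beside −0.0042 over all genes tested, and the median of its absolute size was 0.17, beside 0.11. The authors' deposited table gave an adjusted p under 0.05 to the same 5 genes, all 5 in the same direction. Those values come from the same 6 libraries and are not independent of the test used here. The share of all genes under that threshold in the authors' comparison was not counted.

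On the FPKM scale, which divides fragment counts by gene length and library size, TGFBI, PMEPA1 and LTBP3 stood above both ligands and both receptors in each group. In MUCP1-FLAG cells the order of levels was TGFBI (79.1 ± 1.38 FPKM), PMEPA1 (60.1 ± 1.37), LTBP3 (43.2 ± 1.99), TGFB1 (32.4 ± 1.98), TGFBR1 (20.4 ± 1.31), TGFBR2 (18.7 ± 0.811), LTBP2 (11.6 ± 0.805), THBS1 (5.06 ± 0.331), LTBP1 (1.71 ± 0.439) and TGFB2 (1.42 ± 0.106; SD, n = 3). Neighbours in that order did not overlap between libraries, except TGFBR1 with TGFBR2 and LTBP1 with TGFB2. In LV-NC cells PMEPA1 (74.6 ± 5.78 FPKM) stood first and TGFBI (67.8 ± 1.81 FPKM) next to it, and the other 8 genes kept their places. There LTBP1 and TGFB2 were the only neighbours that overlapped. FPKM comparisons of TGFBR1 and LTBP1 carry an added uncertainty, because the length implied by count and FPKM differed up to 1.22-fold and 1.28-fold between libraries for these genes, against at most 1.11-fold for the other 8.

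**Figure D1:**
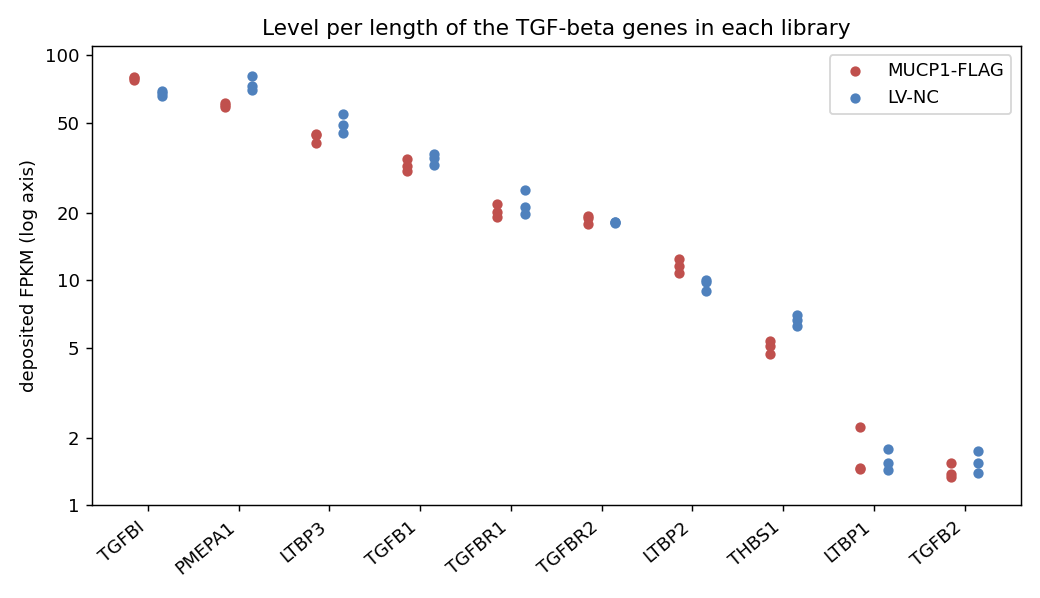
Deposited FPKM on a log axis for each gene, 1 point per library, MUCP1-FLAG (red) left of LV-NC (blue). TGFBI and PMEPA1 lie above 50 FPKM in every library, LTBP1 and TGFB2 lie lowest, and the leading gene is TGFBI in MUCP1-FLAG and PMEPA1 in LV-NC.

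The sequences upstream of THBS1, LTBP2 and TGFBI show the DNA before the start of genes that moved in opposite directions. They are the 3 of the 5 called genes with a single start in RefSeq (GRCh38.p14), limited to bases outside the GENCODE 29 gene and at most 250 bases before the start. For LTBP2 and TGFBI the GENCODE gene begins before the RefSeq start. The bases between these 2 starts were left out and not searched. Each is written 5′ to 3′ on the strand of its gene. Capitals mark matches on either strand to the SMAD element CAGAC or the GC box GGGCGG (reverse complement CCGCCC); the AP-1 element TGANTCA was also searched.
THBS1, chr15:39580829-39581078, + strand, lower in MUCP1-FLAG: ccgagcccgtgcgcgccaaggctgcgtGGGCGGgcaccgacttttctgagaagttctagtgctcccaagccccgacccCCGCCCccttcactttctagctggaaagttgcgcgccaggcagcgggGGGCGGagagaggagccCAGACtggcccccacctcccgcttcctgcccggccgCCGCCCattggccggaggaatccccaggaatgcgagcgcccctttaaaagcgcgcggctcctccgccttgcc
LTBP2, chr14:74612379-74612487, − strand, higher in MUCP1-FLAG: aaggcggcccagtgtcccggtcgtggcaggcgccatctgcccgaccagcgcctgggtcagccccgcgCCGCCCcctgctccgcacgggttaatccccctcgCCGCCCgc
TGFBI, chr5:136028738-136028894, + strand, higher in MUCP1-FLAG: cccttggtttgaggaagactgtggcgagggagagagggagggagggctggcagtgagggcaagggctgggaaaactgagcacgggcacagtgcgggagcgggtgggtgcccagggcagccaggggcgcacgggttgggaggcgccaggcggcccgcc
The THBS1 window held 1 SMAD element and 4 GC boxes, which 38.0% and 42.6% of all 35116 RefSeq windows of 250 bases hold at least once. The LTBP2 window of 109 bases held 2 GC boxes, which 18.8% of windows of that length hold, and no SMAD element, which 19.9% hold. Neither element was found in the TGFBI window of 157 bases, where 27.0% of windows hold the SMAD element and 27.1% the GC box. The AP-1 element was in none of the 3. It is held by 6.57% of windows of 250 bases, 4.01% of 157 bases and 2.65% of 109 bases. No match of the searched motifs overlapped another. These are matches of letters in a short window and were not tested for binding.

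The ligand genes did not pass the test. TGFB1 encodes the ligand that predominates in most tissues and lies on chromosome 19 at 41301587 to 41353911 (− strand, GRCh38). It had 84.6, 90.9 and 94.8 CPM in MUCP1-FLAG and 101, 96.8 and 89.1 CPM in LV-NC, so the groups overlapped. Its log2 fold change was −0.083 ± 0.059 (SE), with a 95% interval of −0.21 to 0.040 and an edgeR adjusted p of 0.382. TGFB2, a second ligand, which binds the receptors well only with the coreceptor TGFBR3, was far lower, at 137 to 209 counts per library. It had 7.94, 9.10 and 7.64 CPM in MUCP1-FLAG and 8.19, 8.99 and 10.2 CPM in LV-NC, again with overlap. Its log2 fold change was −0.14 ± 0.12, with an interval of −0.39 to 0.11 (edgeR adjusted p 0.475), which is wide enough to hold a fall larger than that of LTBP3. Of the exon bases of TGFB2 (chromosome 1, 218346235 to 218444619), 26.6% are shared with the noncoding gene TGFB2-OT1 on the same strand, and 6.64% of those of TGFB1 with HNRNPUL1 on the opposite strand, so such reads cannot be assigned with certainty. The TGFB1 to TGFB2 ratio of FPKM averaged 22.9 ± 2.47 in MUCP1-FLAG and 22.5 ± 3.75 in LV-NC (SD, n = 3 each). The difference of its log2 was 0.038 ± 0.17 (SE; two-sided exact permutation p = 1, where 3 against 3 libraries allow no p below 0.1), and its sign turned when MUCP1-FLAG replicate 3 (−0.048) or LV-NC replicate 3 (−0.093) was left out.

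Neither receptor passed the test. TGFBR1, the type I receptor kinase that phosphorylates SMAD2 and SMAD3 (chromosome 9, 99104038 to 99154192), had 96.6, 86.4 and 91.4 CPM in MUCP1-FLAG and 90.3, 94.8 and 106 CPM in LV-NC. The highest value was that of LV-NC replicate 3, and the groups overlapped. It differed by −0.088 ± 0.063 in log2 fold change, with a 95% interval of −0.22 to 0.042 (edgeR adjusted p 0.380). TGFBR2, the type II receptor that binds the ligand first (chromosome 3, 30606502 to 30694142), had 86.8, 82.3 and 88.3 CPM in MUCP1-FLAG and 82.7, 82.1 and 80.7 CPM in LV-NC. Its log2 fold change was 0.067 ± 0.053, with an interval of −0.044 to 0.18 (edgeR adjusted p 0.442). The intervals of both receptors exclude a change of the size of PMEPA1 or THBS1. The TGFBR1 to TGFBR2 ratio of FPKM was 1.06, 1.22 and 0.990 in MUCP1-FLAG libraries and 1.09, 1.17 and 1.40 in LV-NC libraries. In MUCP1-FLAG replicate 2, TGFBR1 was highest of its group by FPKM (21.8) but lowest by CPM (86.4). Spread of this ratio between libraries therefore includes the uncertainty of implied length given above for TGFBR1. The log2 difference of −0.16 ± 0.14 (SE) did not exceed the spread between libraries (two-sided exact permutation p = 0.4, smallest possible 0.1). It was −0.24 without MUCP1-FLAG replicate 2, −0.092 without MUCP1-FLAG replicate 3 and −0.057 without LV-NC replicate 3.

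Of the 3 latent binding proteins, LTBP2 was called higher, LTBP3 was called lower and LTBP1 was not called. LTBP2, a fibrillin-like matrix protein that unlike its relatives does not bind latent TGF-beta, was higher. It had 88.5, 88.6 and 96.8 CPM in MUCP1-FLAG and 74.3, 79.0 and 74.8 CPM in LV-NC, with every MUCP1-FLAG library above every LV-NC library. The log2 fold change was 0.26 ± 0.056 (edgeR adjusted p 0.0025), and with limma on log2(FPKM + 1) it was 0.25 with an adjusted p of 0.0792. LTBP2 lies on chromosome 14 at 74498170 to 74612378 (− strand). LTBP3, which binds latent TGF-beta1 and helps its secretion, was lower, at 146, 137 and 151 CPM in MUCP1-FLAG against 186, 158 and 155 CPM in LV-NC. LV-NC replicate 1 stood above the other libraries, and the groups were parted by the gap between 151 and 155 CPM. The log2 fold change of LTBP3 was −0.20 ± 0.063 (edgeR adjusted p 0.0328). It was −0.12 (edgeR adjusted p 0.116) without LV-NC replicate 1. Without MUCP1-FLAG replicates 1, 2 and 3 it was −0.21, −0.17 and −0.24 (edgeR adjusted p 0.0766, 0.152 and 0.0555). The call was lost in each of these fits, which use fewer libraries, and the size of the change moved most without LV-NC replicate 1. LTBP3 lies on chromosome 11 at 65538805 to 65558930. LTBP1, which anchors the latent complex in the matrix (chromosome 2, 32946972 to 33399509), was low, at 10.2, 8.14 and 8.36 CPM in MUCP1-FLAG and 8.92, 9.50 and 7.85 CPM in LV-NC. Its log2 fold change was 0.011 ± 0.12, with an interval of −0.24 to 0.27 (edgeR adjusted p 0.967). That interval holds the log2 fold changes of both LTBP2 and LTBP3.

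**Figure D2:**
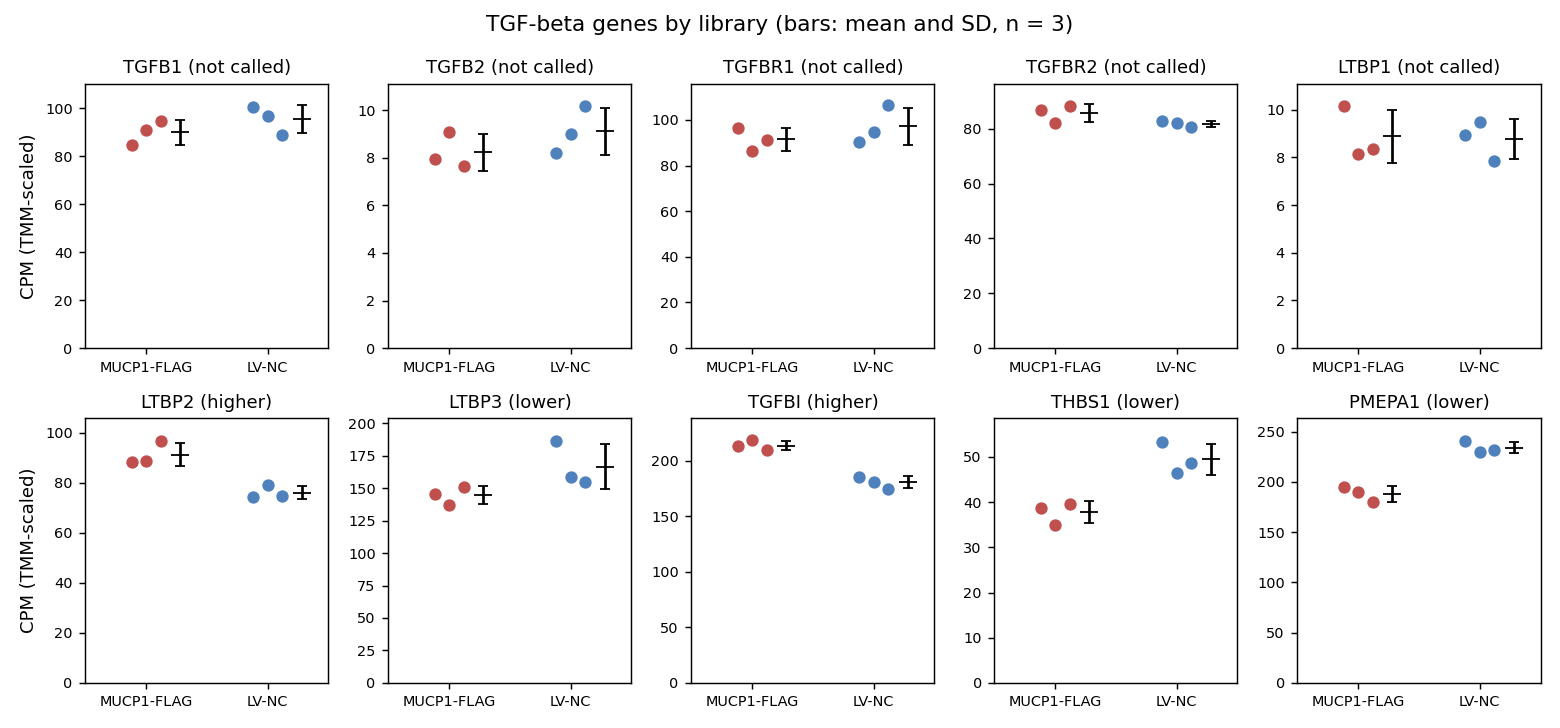
CPM scaled by edgeR's TMM factors in each library for the 10 genes, MUCP1-FLAG (red) left of LV-NC (blue), with mean and SD (n = 3) in black and each axis starting at 0. The groups are apart for LTBP2, LTBP3, TGFBI, THBS1 and PMEPA1, and LTBP3 is parted by the narrowest margin of these, 151 against 155 CPM.

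The 3 reported targets also divided. TGFBI, named for its induction by TGF-beta, encodes a secreted matrix protein that binds integrins and collagen (chromosome 5, 136028895 to 136063818, + strand). It had 213, 218 and 210 CPM in MUCP1-FLAG and 186, 181 and 175 CPM in LV-NC, without overlap. That was a rise of 18.4%, or 0.24 ± 0.046 in log2 fold change (edgeR adjusted p 0.000869). THBS1, thrombospondin 1, is a matrix glycoprotein that can activate latent TGF-beta and is itself a target (chromosome 15, 39581079 to 39599466, + strand). It had 38.6, 35.0 and 39.6 CPM in MUCP1-FLAG and 53.3, 46.5 and 48.6 CPM in LV-NC, all 3 MUCP1-FLAG values being below the lowest LV-NC value. The log2 fold change was −0.39 ± 0.070 (edgeR adjusted p 0.000498), the largest change in size among the 10 genes. PMEPA1 encodes a membrane protein that binds SMAD2 and SMAD3 and dampens the pathway that induces it (chromosome 20, 57648392 to 57711536, − strand). It had 194, 190 and 180 CPM in MUCP1-FLAG and 241, 230 and 232 CPM in LV-NC. The log2 fold change was −0.32 ± 0.047 (edgeR adjusted p 6.54e-05), and the level fell by 19.7%, with all 3 MUCP1-FLAG libraries below the LV-NC libraries. Of the exon bases of PMEPA1, 6.10% are shared with the antisense gene NKILA, and of those of THBS1 4.89% with FSIP1 on the opposite strand. The calls of TGFBI, THBS1 and PMEPA1 held without any single library, with log2 fold changes of 0.22 to 0.26, −0.43 to −0.34 and −0.35 to −0.29.

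**Figure D3:**
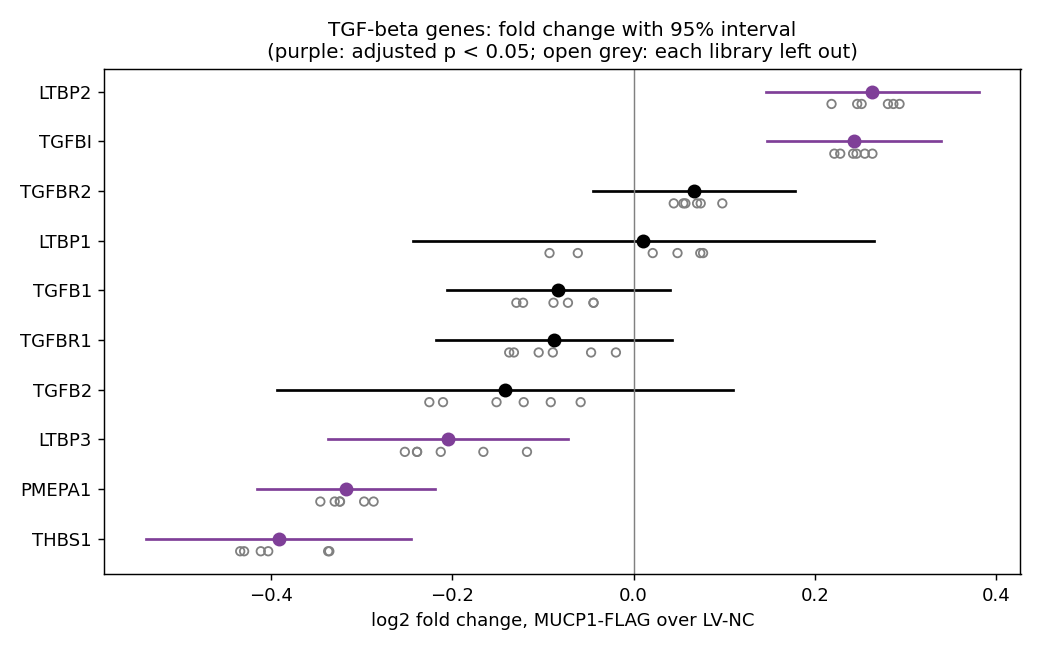
Log2 fold change, MUCP1-FLAG over LV-NC, of the 10 genes with its 95% interval (filled points, purple where the edgeR adjusted p was under 0.05) and the value with each library left out (open grey points). TGFBI and LTBP2 lie right of 0 and PMEPA1, THBS1 and LTBP3 left of it under every omission, and the interval of the other 5 genes spans 0.

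Among 16 further genes of latency and activation, 13 were tested, of which 2 were higher and 3 lower, and the list's median was −0.079 in log2 fold change. The share called in either direction was 38.5%, beside 16.1% of all genes tested (8.35% higher and 7.71% lower). The integrin chain ITGB6, which with ITGAV frees TGF-beta1 on epithelial cells, was lower, at 2.55, 1.44 and 1.64 CPM in MUCP1-FLAG against 4.90, 4.87 and 4.29 CPM in LV-NC. Its log2 fold change was −1.34 ± 0.21 (edgeR adjusted p 0.000121), and −0.58 on the log2(FPKM + 1) scale, which understates changes of low genes. ITGB8, a chain of another integrin known for this activity, was lower by log2 −0.51 ± 0.099 (edgeR adjusted p 0.00105). It had 12.1 to 13.3 CPM in MUCP1-FLAG and 16.7 to 20.6 CPM in LV-NC. With limma it was not called, at −0.33 on log2(FPKM + 1) and −0.49 on log2(FPKM + 0.1) (adjusted p 0.0589 and 0.0683). MMP14, a membrane-bound metalloproteinase, was lower, at 153 to 158 CPM in MUCP1-FLAG and 181 to 198 CPM in LV-NC (log2 fold change −0.29 ± 0.049, edgeR adjusted p 0.000219). The shared partner chain ITGAV, named here after its values were seen, and the chain ITGB5 were higher, with log2 fold changes of 0.26 ± 0.071 and 0.21 ± 0.046 (edgeR adjusted p 0.0206 and 0.00254). Without MUCP1-FLAG replicate 1 or 3 or LV-NC replicate 1 or 2, ITGAV had an adjusted p of 0.109, 0.0812, 0.0543 and 0.0886, which left 1 gene of the list higher. FURIN, the protease that cleaves the TGF-beta precursor, had −0.079 ± 0.065 (edgeR adjusted p 0.456), and the third ligand, TGFB3, was at 0.883 ± 0.128 CPM in MUCP1-FLAG and 0.688 ± 0.220 CPM in LV-NC (SD, n = 3 each).

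Of 17 coreceptors and receptor regulators 15 were tested, of which 2 were higher and 3 lower, and the list's median was −0.024 in log2 fold change. Of these 33.3% were called, beside 16.1% of all genes tested. SMURF1, a ubiquitin ligase that directs receptors and SMADs to degradation, was lower, at 89.3, 88.8 and 86.0 CPM in MUCP1-FLAG against 108, 107 and 99.3 CPM in LV-NC (log2 fold change −0.25 ± 0.054, edgeR adjusted p 0.00247). NEDD4L, a ligase for activated SMAD2 and SMAD3, had −0.19 ± 0.055 (edgeR adjusted p 0.0221) and USP11, a deubiquitinase of TGFBR1, −0.18 ± 0.055 (edgeR adjusted p 0.0251). The decoy receptor BAMBI was higher by 0.21 ± 0.062 (edgeR adjusted p 0.0196), and FKBP1A, which binds the type I receptor and was named after its values were seen, by 0.15 ± 0.046 (edgeR adjusted p 0.0285). Apart from SMURF1, each of these calls was lost when 1 of several libraries was left out, which also leaves fewer libraries to test. Without MUCP1-FLAG replicates 1, 2 and 3, BAMBI had 0.21, 0.23 and 0.20 (edgeR adjusted p 0.0631, 0.0536 and 0.0955), beside 0.21 with all libraries. The calls of NEDD4L, USP11 and FKBP1A were all lost without MUCP1-FLAG replicate 2, MUCP1-FLAG replicate 3 or LV-NC replicate 2 (adjusted p 0.0603 to 0.148), and that of USP11 also without LV-NC replicate 1 (log2 fold change −0.12, adjusted p 0.0923). The number of genes higher was 0 without MUCP1-FLAG replicate 2 or 3 and 1 without MUCP1-FLAG replicate 1 or LV-NC replicate 2, and the number lower was 1 without MUCP1-FLAG replicate 2, MUCP1-FLAG replicate 3 or LV-NC replicate 2. The coreceptor TGFBR3 had 0.10 ± 0.12 (edgeR adjusted p 0.610).

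The SMAD genes themselves did not pass the test. Of 15 SMADs and SMAD cofactors, all tested, 1 was higher and 0 were lower by edgeR. The share called was 6.67%, beside 16.1% of all genes tested. DESeq2 called 0 higher and 0 lower, beside 920 higher and 822 lower over all genes. At an unadjusted p under 0.05, 2 were higher and 4 lower by edgeR, but the share of all genes at that limit was not counted. SMAD2 had a log2 fold change of 0.023 ± 0.062 and SMAD3 of 0.12 ± 0.069 (edgeR adjusted p 0.850 and 0.282). The inhibitory SMAD7, a direct target of the pathway, had 0.028 ± 0.075 (edgeR adjusted p 0.844). SMAD4 was near the floor of detection, with 18, 26 and 28 counts in MUCP1-FLAG and 17, 35 and 21 counts in LV-NC. Per length it stood at 0.760 ± 0.138 FPKM in MUCP1-FLAG and 0.583 ± 0.183 FPKM in LV-NC, where SMAD2 stood at 29.1 and 28.2 FPKM (SD, n = 3 each). The log2 fold change of SMAD4 was −0.0093 ± 0.31 (edgeR adjusted p 0.989), with an interval of −0.65 to 0.63. TGIF2, a SMAD corepressor, was the gene called higher (0.24 ± 0.077, edgeR adjusted p 0.0421), and the call was lost with DESeq2 (adjusted p 0.0617) and without MUCP1-FLAG replicate 2, MUCP1-FLAG replicate 3 or LV-NC replicate 3 (adjusted p 0.208, 0.137 and 0.105). The corepressor SKI lay just outside the threshold (−0.17 ± 0.059, edgeR adjusted p 0.0507) and inside it without LV-NC replicate 3 (0.0210); it was then the 1 gene of the list called lower, and 2 were lower without LV-NC replicate 1.

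**Figure D4:**
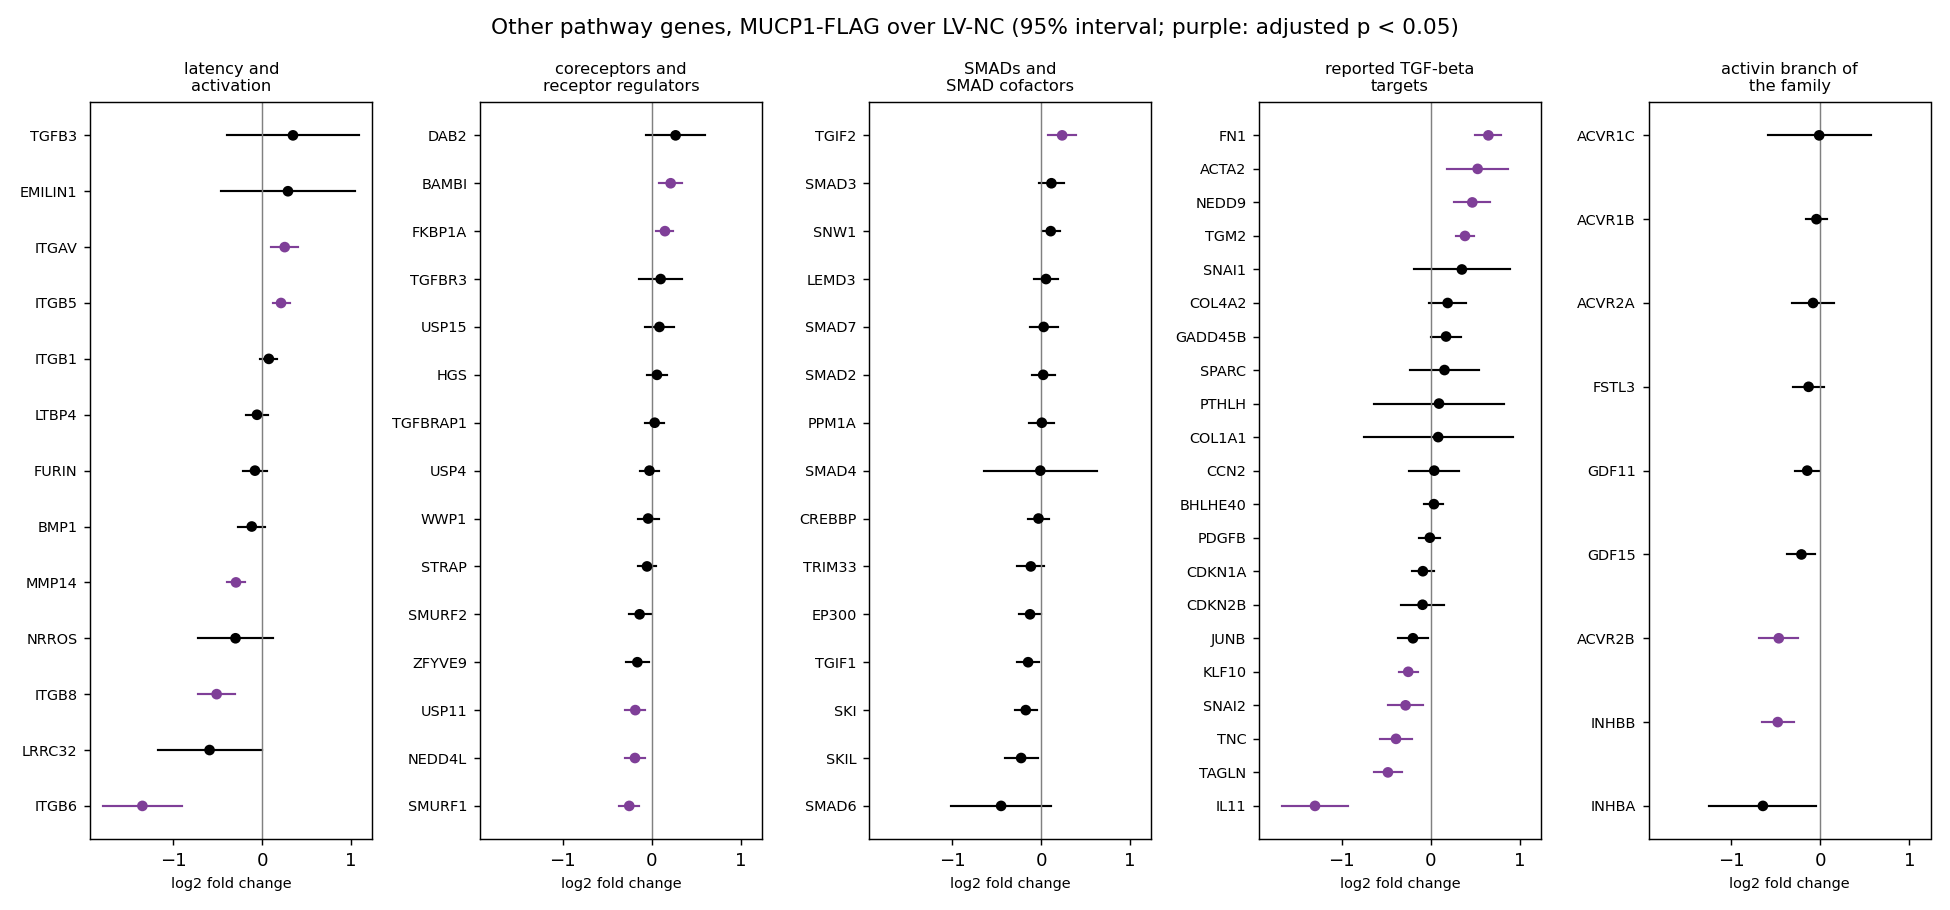
Log2 fold change, MUCP1-FLAG over LV-NC, with its 95% interval for every tested gene of the 5 further lists (purple where the edgeR adjusted p was under 0.05). Called genes lie on both sides of 0 in the lists of latency, receptor regulators and targets, the SMAD list holds 1 called gene, TGIF2, and the called genes of the activin list, INHBB and ACVR2B, lie left of 0.

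Genes reported elsewhere as TGF-beta targets moved in both directions, as the targets above did. Of 26 genes 21 were tested, of which 4 were higher and 5 lower (median 0.039 in log2 fold change), or 42.9% called beside 16.1% of all genes tested. In this list COL1A2, POSTN and NOX4 had 0 counts in all 6 libraries. FN1, fibronectin, was higher, at 198, 168 and 183 CPM in MUCP1-FLAG against 127, 105 and 118 CPM in LV-NC (log2 fold change 0.65 ± 0.068, edgeR adjusted p 5.83e-06). TGM2, a transglutaminase that crosslinks matrix proteins, was higher, at 2807, 2954 and 2901 CPM in MUCP1-FLAG against 2309, 2247 and 2077 CPM in LV-NC (0.38 ± 0.047, edgeR adjusted p 6.01e-06). The cytokine gene IL11 was lower and scarce, at 1.91, 2.31 and 2.51 CPM in MUCP1-FLAG against 6.26, 5.56 and 4.87 CPM in LV-NC (−1.30 ± 0.18, edgeR adjusted p 2.59e-05). TAGLN, an actin-binding protein of smooth muscle, was lower, at 25.4, 24.8 and 26.6 CPM in MUCP1-FLAG against 38.1, 36.2 and 32.7 CPM in LV-NC (−0.48 ± 0.076, edgeR adjusted p 0.000119).

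The remaining calls of this list were named after their values were seen. NEDD9, a docking protein of focal adhesions, was higher (log2 fold change 0.47 ± 0.097, edgeR adjusted p 0.00197), and ACTA2, smooth muscle actin, was called higher at 5.22 ± 0.588 CPM in MUCP1-FLAG and 3.62 ± 0.516 CPM in LV-NC (SD, n = 3 each). The matrix protein gene TNC had −0.39 ± 0.089, the early response factor KLF10 −0.25 ± 0.052 and the E-cadherin repressor SNAI2 −0.28 ± 0.093. The call of TNC was lost with limma (−0.26 on log2(FPKM + 1), adjusted p 0.141). The calls of ACTA2 and SNAI2 (edgeR adjusted p 0.0318 and 0.0414) were lost with DESeq2 (adjusted p 0.0777 and 0.0917) and without MUCP1-FLAG replicate 2, MUCP1-FLAG replicate 3, LV-NC replicate 2 or LV-NC replicate 3 (adjusted p 0.0595 to 0.170), that of SNAI2 also without MUCP1-FLAG replicate 1 (0.0933). The growth-arrest genes CDKN1A and CDKN2B had −0.088 ± 0.059 and −0.092 ± 0.11 (edgeR adjusted p 0.343 and 0.646), and CCN2, connective tissue growth factor, 0.039 ± 0.14 (edgeR adjusted p 0.882).

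Activin receptors signal through the same SMADs. In the list of the activin branch of the family, 9 of 13 genes were tested, of which 2 were lower and 0 higher by edgeR. That is 22.2%, near the 16.1% of all genes tested. DESeq2 called 2 lower and 0 higher, beside 822 lower and 920 higher over all genes. At an unadjusted p under 0.05, 5 were lower and 0 higher by edgeR, but the share of all genes at that limit was not counted. INHBB, which encodes the subunit of activin B, was lower, at 15.6, 17.8 and 15.4 CPM in MUCP1-FLAG against 21.7, 24.2 and 22.2 CPM in LV-NC (log2 fold change −0.48 ± 0.087, edgeR adjusted p 0.000555). ACVR2B, a type II activin receptor, was lower, at 9.10, 9.66 and 10.3 CPM in MUCP1-FLAG against 12.9, 12.5 and 14.8 CPM in LV-NC (−0.47 ± 0.10, edgeR adjusted p 0.00355). With limma it was not called, at −0.24 on log2(FPKM + 1) and −0.44 on log2(FPKM + 0.1) (adjusted p 0.114 and 0.144). The type I receptor ACVR1B had −0.044 ± 0.058 (edgeR adjusted p 0.667).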

How the data were processed

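Per the submitters' processing notes, fastp, HISAT2, featureCounts, DESeq2 and the build GRCh38 were used; versions, roles and the strand setting are not given in the sources used here. The authors deposited whole-number counts per gene and FPKM values for each library, and their own comparison: mean FPKM per group, a log2 fold change, and a p-value with its adjusted p-value, whose test the file headers do not name. The counts were tested with edgeR 4.0.16 in R 4.3.3 (quasi-likelihood F test, robust, TMM scaling, filterByExpr with a minimum count of 10), with Benjamini-Hochberg adjustment over all 12920 genes kept. CPM are TMM-scaled, SE is the log2 fold change over the root of F, and all 6 libraries entered without a block. Alternatives were RLE and upper quartile factors, DESeq2 1.42.0, no filter, at least 1 CPM in 3 libraries, limma 3.58.1 on log2(FPKM + 1) and log2(FPKM + 0.1), a replicate block and each library left out. Replicates are labelled biological, with no day or batch, so p-values measure only the spread between these libraries. Library totals of 17333329 to 23282604 counts set the precision. The genes and lists were chosen with earlier results of these data known. All 10 genes of the rule were named, with SMAD4 and up to 4 called genes per further list by smallest adjusted p, or the 2 of smallest p in a list with fewer than 2 called; other genes of these lists were named after their values were seen. In the list of reported targets, 1 gene is not reported here, and its counts leave it out.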

Additional observations from a re-analysis of the deposited data

How the results depend on the processing

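Of 27 called genes of the TGF-beta lists, cell type markers aside, 14 were called under all 14 alternatives and 0 changed direction. Numbers of genes in the text's lists are small, so losing 1 gene can move them by more than 1.5 times. Over all genes 1079 were higher and 996 lower; limma gave 514 and 544 on log2(FPKM + 1) and 516 and 549 on log2(FPKM + 0.1). With each library left out they ran from 639 to 1323 higher and from 624 to 1213 lower, with 639 and 624 without MUCP1-FLAG replicate 3 and 671 higher without LV-NC replicate 2. Under either limma setting 1 of the 10 TGF-beta genes was higher (TGFBI), as was 1 latency gene, 0 receptor regulators were higher and 1 lower, 0 SMAD genes were higher, 3 reported targets were lower and 1 activin gene was lower. The calls lost under both limma settings were those of LTBP2, LTBP3, ITGB8, ITGAV, BAMBI, NEDD4L, USP11, FKBP1A, TGIF2, ACTA2, SNAI2, TNC and ACVR2B (adjusted p 0.0526 to 0.526). With upper quartile factors 1 receptor regulator and 0 SMAD genes were higher and 1 SMAD gene was lower; with RLE factors or at least 1 CPM in 3 libraries 1 SMAD gene was lower, and with DESeq2 0 were higher. On log2(FPKM + 1) the values of TGIF2, SNAI2 and IL11 were 0.10, −0.15 and −0.87, and IL11 was still called. With each library left out, latency genes higher ran from 1 to 2, receptor regulators higher from 0 to 2 and lower from 1 to 3, and SMAD genes higher from 0 to 1 and lower from 0 to 2; the TGF-beta genes stayed at 2 higher and ran from 2 to 3 lower. The sign turned for 2 uncalled genes. LTBP1 had −0.0051 with upper quartile factors and, with libraries left out, values from −0.093 to 0.077, with −0.062 without LV-NC replicate 3. SMAD4 had 0.16 with limma on log2(FPKM + 1), 0.35 on log2(FPKM + 0.1), and, with libraries left out, values from −0.18 to 0.28, with 0.070, 0.041 and 0.28 without MUCP1-FLAG replicate 1, MUCP1-FLAG replicate 2 and LV-NC replicate 2. The TGFB1 to TGFB2 ratio ran from −0.093 to 0.15 with libraries left out, with −0.048 without MUCP1-FLAG replicate 3. Except where the alternative's own construction uses fewer libraries, the cause was not tested. Same-numbered libraries of the 2 groups did not deviate together (r of 0.035, 0.050 and 0.0024), so the numbers were not taken as pairs. With the replicate block 1005 genes were higher and 954 lower, and the counts of every list and the call of every named gene were as without it. A gene near 20 counts per library, such as SMAD4, allowed no finer statement than its interval.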
